A study of Mus musculus with 6 samples.

Results

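A set of 9 genes of Hedgehog reception and GLI transcription was followed in ATDC5 cells, a mouse chondrogenic line, under IL-1β with and without the FSCN1 inhibitor NP-G2-044. The genes were the coreceptors Gas1, Cdon and Boc, the receptor Ptch1, the signal transducer Smo, the GLI-binding protein Sufu, and the transcription factors Gli1, Gli2 and Gli3. They were taken by gene symbol from the 16880 genes of the expression table and make up 9 of them. Because these genes were chosen by their read counts and TPM in the same comparison, their differences between the groups are given as a description, with fold changes and standard errors and without any test.

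RNA-sequencing covered 6 libraries, 3 from cells given 10 ng/mL IL-1β (the IL group) and 3 from cells given the same IL-1β dose plus 10 μM NP-G2-044 (the ILN group), both for 24 h by the study's methods. IL-1β is an inflammatory cytokine used to model the cartilage damage of osteoarthritis, and FSCN1 (fascin) bundles actin filaments. Both groups therefore carried IL-1β, and cells without it were not analysed here, so no value below is relative to untreated cells. The titles and protocol name the inhibitor NP-G2-044, while the treatment field of the same 3 samples reads NP-G2-047. The labels call the cells ATDC5 and the methods call them chondrocytes. The methods give 3 biological replicates per group, but nothing in the labels says that libraries came from separate cultures, so p-values may measure technical spread only.

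Hedgehog proteins act by binding Patched (Ptch1), which otherwise holds Smoothened (Smo) inactive. Gas1, Cdon and Boc sit at the cell surface, bind Hedgehog ligand together with Ptch1 and promote its reception. Active Smo, at the primary cilium, releases the GLI factors from Sufu, lets Gli2 and Gli3 act as activators, and so induces target genes that include Ptch1 and Gli1 themselves. In the growth plate, Indian hedgehog from prehypertrophic chondrocytes drives this pathway and controls proliferation and hypertrophy together with PTHrP. Gas1 was first known as a growth arrest-specific gene, and its protein, anchored to the membrane by a lipid, is related in structure to the GFRα coreceptors of RET.

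Gas1 and Ptch1, the coreceptor and the receptor with the lowest log2 fold changes among the genes above 1 TPM, lie on chromosome 13, and Smo, whose level moved least, lies on chromosome 6. The 250 bases before the RefSeq transcription start (mouse GRCm38, 5′ to 3′ on the gene's strand) are shown for these 3, since such windows are where GLI, SP/KLF or CCAAT-binding factors could be looked for. Capitals mark the GC box GGGCGG and the box CCAAT, each searched on both strands, so that a match on the other strand reads CCGCCC or ATTGG.

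Gas1: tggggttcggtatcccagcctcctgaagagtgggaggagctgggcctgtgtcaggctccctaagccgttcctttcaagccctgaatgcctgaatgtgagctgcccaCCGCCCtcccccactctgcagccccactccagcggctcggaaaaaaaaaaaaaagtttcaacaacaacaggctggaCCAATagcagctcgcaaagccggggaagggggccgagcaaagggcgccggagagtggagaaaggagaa
Ptch1: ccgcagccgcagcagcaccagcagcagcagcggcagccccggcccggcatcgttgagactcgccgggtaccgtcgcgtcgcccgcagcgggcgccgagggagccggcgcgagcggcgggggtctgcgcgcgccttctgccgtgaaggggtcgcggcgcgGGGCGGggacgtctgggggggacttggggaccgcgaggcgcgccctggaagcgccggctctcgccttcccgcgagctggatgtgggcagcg
Smo: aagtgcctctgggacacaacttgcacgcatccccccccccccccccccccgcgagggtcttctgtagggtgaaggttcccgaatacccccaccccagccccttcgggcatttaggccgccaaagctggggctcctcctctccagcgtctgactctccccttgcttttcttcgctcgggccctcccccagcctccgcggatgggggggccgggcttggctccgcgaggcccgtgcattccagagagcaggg

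The Gas1 window, chr13:60177536-60177785 on the minus strand, is 58.8% G or C, holds 10 CG dinucleotides, and has its GC box and CCAAT box 144 and 68 bases before the start. It also overlaps an exon of Gm48488, a lincRNA on the opposite strand. The Ptch1 window, chr13:63565736-63565985 on the minus strand, is 78.4% G or C with 41 CG dinucleotides and 1 GC box, 91 bases before a start that lies inside the span of longer Ptch1 transcripts. The Smo window, chr6:29735247-29735496 on the plus strand, is 68.4% G or C with 15 CG dinucleotides and neither box. Upstream windows of this kind were found for 7 of the 9 genes, all but Gli1 and Boc. The Cdon window, chr9:35451826-35452075, lies well inside the gene's span and overlaps a Cdon exon. Those of Gli2 and Gli3 also lie inside a longer annotated span of their gene, so such windows need not be the start in use. None of the 7 held the GLI consensus GACCACCCA on either strand, which 0.225% of 32851 mouse windows of the same length hold, nor its core CCACCCA, which lies within the consensus and occurs in 8.11%. The GC box occurs in 32.7% of those windows, CCAAT in 33.9% and at least 1 CG dinucleotide in 92.1%. Such matches describe letters in a window and were not examined for binding of any factor.

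The libraries held between 16615824 and 17735860 reads assigned to genes, and 11983 genes had enough reads to be tested. Fscn1 itself, the target of the inhibitor, went from 616.2 ± 9.46 to 252.4 ± 2.47 TPM (SD, n = 3 each). The comparison moved a large part of the transcriptome: with edgeR's quasi-likelihood test and Benjamini-Hochberg adjustment at 0.05, 39.8% of the tested genes were lower and 40.2% higher with NP-G2-044, and 10.1% and 6.48% were also past a log2 fold change of 1 downward and upward. The median log2 fold change over the tested genes was 0.00. Of the defining cartilage markers, Col2a1 was at 0.24 TPM or less in every library and Matn1 had no read. Acan was not listed in the table used here. Col11a2, another cartilage collagen gene, had a mean of 5.01 TPM in IL and 3.43 TPM in ILN. Summed chondrocyte markers ranged from 22.2 to 23.1 TPM in IL and from 17.3 to 18.0 in ILN, 7 of the 10 listed being under 1 TPM in every library, while fibroblast markers summed to 1115 to 1161 and 341.7 to 355.9 TPM. Nearly all of the fibroblast sum was Col1a2. Also lower in ILN were Col1a1 (8.76 and 1.23 TPM), Col3a1 (7.45 and 1.47), Dcn (3.83 and 1.05) and Postn (10.1 and 4.63), while Pdgfra (2.36 and 8.69 TPM) was higher. Among the chondrocyte markers, Sox9 (6.44 and 11.4 TPM) was higher in ILN and Sox5 (10.3 and 2.27 TPM) was lower. Of the markers of other cells, the macrophage list went from between 11.3 and 14.3 to between 124.1 and 134.9 TPM, nearly all of it Cd68, with the defining marker Ptprc without a read in any library. Osteoblast markers summed to 8.35 to 9.64 and 4.24 to 4.34 TPM and adipocyte markers to 4.90 to 7.58 and 0.55 to 0.98 TPM, while myoblast, smooth muscle, epithelial and endothelial markers summed to 1.4 TPM or less in every library. The part of these shifts in the Hedgehog results was not tested. In such bulk RNA, fewer cells that express a gene and less RNA per cell cannot be told apart.

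Of the 9 genes, 8 had enough reads to be tested and 7 of these were lower with NP-G2-044, Boc alone being higher. Gas1, Ptch1, Gli1 and Cdon had log2 fold changes below -1, a line that 10.1% of all tested genes also crossed downward irrespective of any test. Gli1 enters these counts and the median below only because its IL libraries passed the filter on low counts. Under a filter of 10 CPM in 3 libraries, which drops Gli1, 3 genes were past that line. Smo, Sufu, Gli3 and Boc stayed within 1 log2 unit. The 3 libraries of one group lay wholly apart from the 3 of the other for all 8, as they did for 80.8% of all tested genes. The median of the 8 log2 fold changes was -1.06, where that of all tested genes was 0.00.

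**Figure D1:**
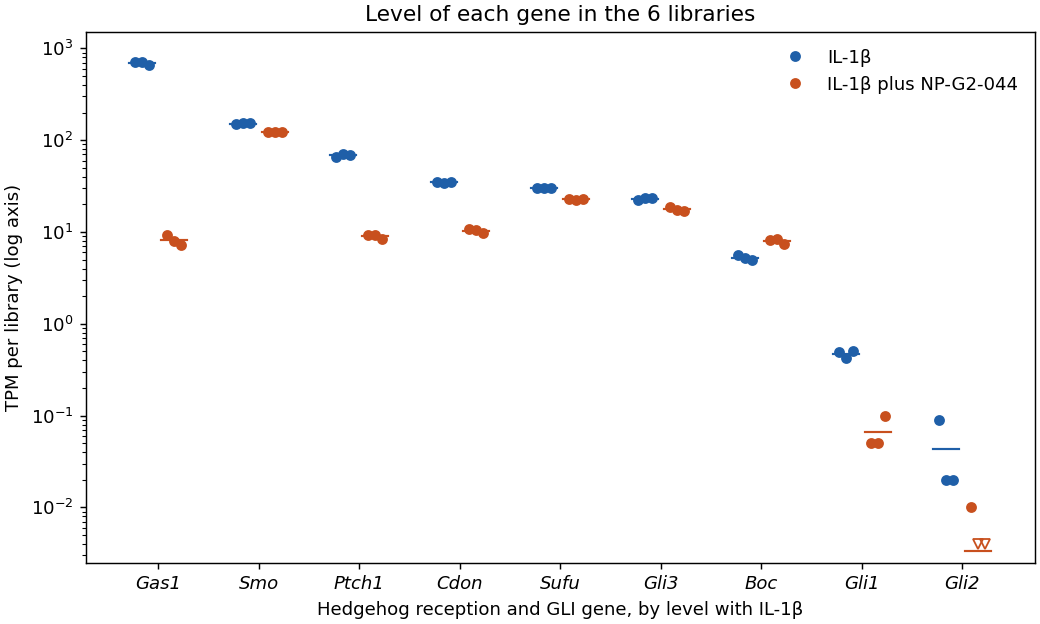
Level of each of the 9 genes in each library in TPM (log axis), blue for IL-1β and orange for IL-1β plus NP-G2-044, with a line at the mean of 3 libraries. Open triangles mark libraries at 0. Gas1 drops from 700.0 to 8.16 TPM and Ptch1 from 68.6 to 9.03, while Smo stays above 122 TPM and Boc is the one gene that is higher with the inhibitor.

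Gas1 (gene 14451; chr13:60174405-60177365, minus strand, GENCODE) was the coreceptor with the highest level under IL-1β. It had 21979, 21378 and 20288 reads in the IL libraries and 298, 263 and 236 in the ILN libraries. Per length, its level was 715.9, 717.5 and 666.6 TPM with IL-1β and 9.29, 8.02 and 7.18 TPM with the inhibitor added. Every IL library thus lay far above every ILN library. The mean went from 700.0 ± 28.9 to 8.16 ± 1.06 TPM (SD, n = 3), 85.7-fold lower, and the log2 fold change was -6.39 with a standard error of 0.0525. Gas1 transcripts took 0.127% of all assigned reads in IL and 0.00151% in ILN, and the gene went from rank 174 to rank 8565 by TPM among all listed genes. Ranked from the lowest, its log2 fold change stood at place 18 of 11983. Leaving out each library in turn moved it between -6.48 and -6.31. Exons of Gas1 share 589 bases with exons of Gm48488 on the opposite strand, and the sources used here do not say whether counting used strand.

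Cdon and Boc, the other coreceptors, are related immunoglobulin and fibronectin-repeat proteins, and they moved in opposite directions. Cdon (gene 57810; chr9:35421128-35507652, plus strand) had 34.74, 34.39 and 34.88 TPM in IL and 10.68, 10.52 and 9.81 TPM in ILN. Its IL libraries differed by less than 1 TPM and all lay above the ILN libraries, with a log2 fold change of -1.72 ± 0.0383 (SE), or 3.35-fold lower in mean TPM. Boc (gene 117606; chr16:44485049-44558897, minus strand) was the only gene of the 9 that was higher, at 5.67, 5.17 and 4.99 TPM in IL and 8.23, 8.45 and 7.34 TPM in ILN. The lowest ILN library stood above the highest IL library, on 698 reads over the IL group and 1138 over the ILN group. Boc's log2 fold change was 0.63 ± 0.0773 (SE), or 1.52-fold in mean TPM. Within each library, Cdon exceeded Boc 6.59 ± 0.435 times in IL and 1.29 ± 0.0459 times in ILN (SD, n = 3).

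Summed over the 3 coreceptors, the level was 756.3, 757.05 and 706.5 TPM in the IL libraries and 28.2, 26.99 and 24.33 TPM in the ILN libraries. Gas1 accounted for 94.6% ± 0.216 of that sum under IL-1β and 30.7% ± 1.93 with the inhibitor (SD, n = 3). With NP-G2-044, the largest coreceptor level was therefore that of Cdon, at 10.3 TPM, followed by Gas1 and Boc, whose libraries overlapped.

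Ptch1 (gene 19206; chr13:63508328-63573598, minus strand) is both the Hedgehog receptor and a gene that the pathway induces. Its level was 66.33, 70.65 and 68.74 TPM in IL and 9.25, 9.39 and 8.46 TPM in ILN, on 5009, 5178 and 5150 reads against 731, 759 and 685. All 3 ILN libraries lay far below all 3 IL libraries. The mean was 7.59-fold lower, going from 68.6 ± 2.16 to 9.03 ± 0.501 TPM, with a log2 fold change of -2.89 ± 0.0368 (SE) and a range of -2.92 to -2.85 on leaving out each library. Smo (gene 319757; chr6:29735503-29761365, plus strand), the transducer that Ptch1 restrains, moved much less, from 148.9, 153.4 and 153.4 TPM in IL to 122.3, 124.3 and 122.04 TPM in ILN. The groups did not overlap, but ILN kept 80.9% of the IL level, a log2 fold change of -0.27 ± 0.0278 (SE). The Smo to Ptch1 ratio of TPM within a library was 2.22 ± 0.0397 in IL and 13.6 ± 0.691 in ILN, while the Gas1 to Ptch1 ratio went from 10.2 ± 0.5503 to 0.902 ± 0.0883 (SD, n = 3).

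**Figure D2:**
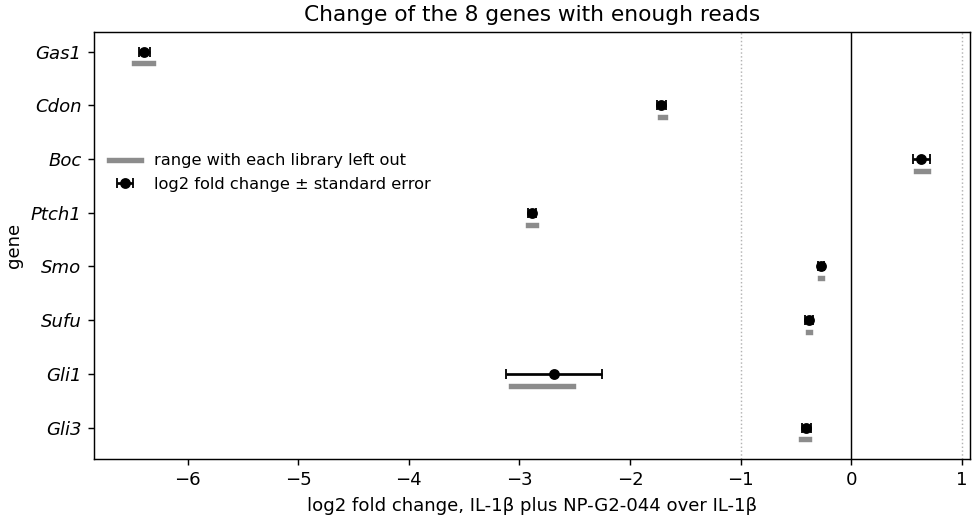
Log2 fold change of the ILN group over the IL group for the 8 genes with enough reads, ordered by role, with horizontal bars for the standard error and grey bars for the range on leaving out each of the 6 libraries. Dotted lines mark 1 log2 unit. Gas1 lies at -6.39, Ptch1, Gli1 and Cdon between -2.89 and -1.72, Smo, Sufu and Gli3 between -0.40 and -0.27, and Boc at 0.63.

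Sufu (gene 24069; chr19:46396896-46488804, plus strand), which binds and restrains the GLI factors, had 29.97, 30.11 and 30.53 TPM in IL and 22.81, 22.33 and 22.8 TPM in ILN. The groups lay apart, with a log2 fold change of -0.38 ± 0.0393 (SE) and 74.98% of the IL level left. Gli3 (gene 14634; chr13:15463235-15730026, plus strand), the GLI factor best known as a repressor, had 22.17, 23.6 and 23.41 TPM in IL against 18.63, 17.5 and 17.08 TPM in ILN. Its log2 fold change was -0.40 ± 0.0379 (SE), so that 76.9% of the level remained. Gli3 exons share 188 bases with Gm6556, a transcript on the opposite strand. The Gli3 to Sufu ratio of TPM was 0.763 ± 0.0222 in IL and 0.783 ± 0.0338 in ILN, with overlapping libraries. Smo, Sufu and Gli3 thus kept between 74.98% and 80.9% of their levels, whereas Ptch1 kept 13.2%.

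Gli1 and Gli2, the factors best known as activators, were both near the lower limit of these libraries. Gli1 (gene 14632; chr10:127329882-127341974, minus strand), which GLI activity itself induces, had 18, 15 and 18 reads in IL and 2, 2 and 4 in ILN. All IL libraries exceeded all ILN libraries, at 0.49, 0.42 and 0.50 TPM against 0.05, 0.05 and 0.10. The pooled ratio, 51 reads to 8 at equal depth, was 6.71, and the fitted log2 fold change was -2.69 ± 0.437 (SE). Gli1 passed the filter on low counts only through its IL libraries, and its exons share 62 bases with Arhgap9 and 265 bases with an antisense RNA, both on the opposite strand. Gli2 (gene 14633; chr1:118834132-119053619, minus strand) had 6, 1 and 1 reads in IL and 1, 0 and 0 in ILN and did not pass the filter. The pooled ratio of 8 reads to 1 was 8.42 at equal depth, but 6 of the 8 IL reads came from 1 library. The groups of libraries touched at 1 read. Gli3 made up 97.8% ± 0.360 of the TPM of the 3 GLI genes in IL and 99.6% ± 0.162 in ILN (SD, n = 3). The pooled ratios of Gli1 and Gli2 take no account of the spread between libraries.

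With IL-1β alone the order of level was Gas1, Smo, Ptch1, Cdon, Sufu, Gli3, Boc, Gli1 and Gli2, and at each step all 3 libraries of the higher gene lay above all 3 of the next. With NP-G2-044 it was Smo, Sufu, Gli3, Cdon, Ptch1, Gas1, Boc, Gli1 and Gli2, in which Ptch1 and Gas1, and Gas1 and Boc, overlapped. Gas1 dropped from the first place to the sixth and Ptch1 from the third to the fifth, while Smo led the order.

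**Figure D3:**
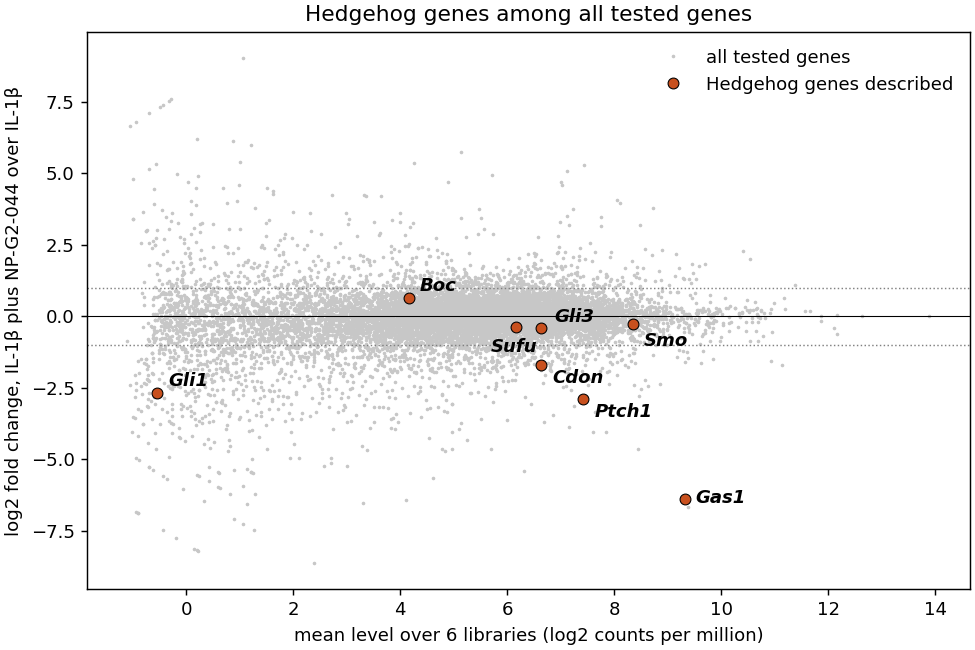
Log2 fold change (vertical axis, ILN over IL) against mean level over the 6 libraries (horizontal axis, log2 CPM) for the 11983 tested genes in grey, with the 8 Hedgehog genes in orange. Dotted lines mark 1 log2 unit. Gas1, at -6.39, lies far below the grey band, in which Smo, Sufu, Gli3 and Boc lie.

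The other genes of the pathway were followed in lists written by role, with earlier results of these data known. Their calls are therefore a description, given beside the 39.8% lower and 40.2% higher of all tested genes, and no list was tested as a set. At the ligand step there was little to count. Ihh had 4 reads over the IL group and 3 over the ILN group, Dhh had 2 in each, and Shh was not listed in the table used here. Of 3 tested genes for ligand maturation and release, Disp1 (log2 fold change -0.17, adjusted p = 0.00115 by edgeR's quasi-likelihood test) and Scube3 (-0.88, adjusted p = 0.00257) fell, while Hhat, which attaches palmitate to Hedgehog, had a value of -0.26 and was not called (adjusted p = 0.120). Scube3 rested on 31, 35 and 20 reads in IL and 12, 22 and 15 in ILN, and its groups of libraries overlapped. Those of Hhat did not, and limma, an alternative used below, called all 3 genes lower on either TPM scale. Among other surface proteins, Hhip was not listed in that table. All 3 tested binders fell, the glypicans Gpc4 and Gpc6 and the endocytic receptor Lrp2. Gpc4, a heparan sulfate proteoglycan of the membrane, went from 22.2 ± 0.635 to 5.28 ± 0.347 TPM (log2 fold change -1.97, SE 0.0773, adjusted p = 2.39e-29).

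Of 12 regulators of Smo, 5 rose, 4 fell and 3 were not called, with a median log2 fold change of 0.02, and without the first ILN library 3 rose. Past a log2 fold change of 1 were Arrb1, a β-arrestin that associates with activated Smo, and Evc, a ciliary protein that carries the signal from Smo to the GLI factors. Arrb1 fell from 4.73 ± 0.113 to 0.307 ± 0.136 TPM (log2 fold change -3.92, SE 0.138, adjusted p = 7.6e-29 by edgeR's quasi-likelihood test). The other β-arrestin, Arrb2, had a far higher level and rose, from 65.6 ± 3.73 to 74.4 ± 3.89 TPM (0.23, adjusted p = 7.81e-06 by the same test). Evc fell from 30.9 ± 0.933 to 12.8 ± 0.121 TPM (-1.24, SE 0.0448, adjusted p = 6.21e-31). Its partner Evc2, encoded beside it, had 31.8 ± 0.745 and 32.5 ± 0.876 TPM and was not called (0.07, adjusted p = 0.105). Grk2, the kinase that phosphorylates active Smo, rose from 67.3 to 96.8 TPM (0.56, adjusted p = 9.89e-23).

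The 19 kinases, ubiquitin ligases and partners that process GLI proteins were evenly spread, with 7 higher, 7 lower and 5 not called, and a median of 0.03. Ulk3, a kinase that phosphorylates GLI proteins, was the single one past a log2 fold change of 1, from 6.41 ± 0.360 to 15.9 ± 1.39 TPM (1.34, SE 0.0798, adjusted p = 1.53e-21 by edgeR's quasi-likelihood test). Kif7, the ciliary kinesin of the pathway, rose by 0.55 on the log2 scale, while Prkaca, the protein kinase A subunit that marks GLI proteins for processing, fell by 0.56 and Dyrk2 fell by 0.70.

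Of 42 genes of the primary cilium, where Smo and the GLI factors are activated, 14 rose, 21 fell and 7 were not called, around a median log2 fold change of -0.11. Rpgrip1l, a protein of the ciliary transition zone, was the single gene past a log2 fold change of 1, from 16.4 ± 0.858 to 6.62 ± 0.356 TPM (-1.30, SE 0.0518, adjusted p = 5.22e-29 by edgeR's quasi-likelihood test). Other ciliary genes moved both ways, with Tctn2 at -0.90, Pkd2 at -0.87 and Ift80 at -0.86 but Tulp3 at 0.72, Ift88 at 0.69 and Ift172 at 0.64, all called.

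Genes that GLI factors are known to induce in one tissue or another were followed as targets other than Ptch1 and Gli1. Of 22 such genes, 14 had enough reads, 7 fell, 4 rose and 3 were not called, with a median log2 fold change of -0.36. Snai1, a repressor of epithelial genes, fell from 115.3 ± 5.13 to 25.8 ± 1.07 TPM (log2 fold change -2.13, SE 0.0499, adjusted p = 5.4e-39 by edgeR's quasi-likelihood test). Grem1, a secreted BMP antagonist, fell from 19.1 ± 1.60 to 3.97 ± 0.458 TPM (-2.26, SE 0.109, adjusted p = 2.42e-25), and the forkhead factor Foxc1 fell from 52.9 ± 3.25 to 16.01 ± 1.01 TPM (-1.69, SE 0.0483, adjusted p = 5.53e-25). The Wnt antagonist Sfrp1, also past this cutoff, rested on 37 reads in IL and 3 in ILN and passed the filter only through IL. In the other direction, Ccnd2, cyclin D2, rose from 2.81 ± 0.26 to 11.4 ± 0.631 TPM (2.06, SE 0.0705, adjusted p = 5.36e-32). Smaller changes were those of Ccnd1 (0.25), Bcl2 (0.61) and Foxf1 (0.60), which rose, and of Jag2 (-0.81), Nr2f2 (-0.78) and Nr2f1 (-0.64), which fell.

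**Figure D4:**
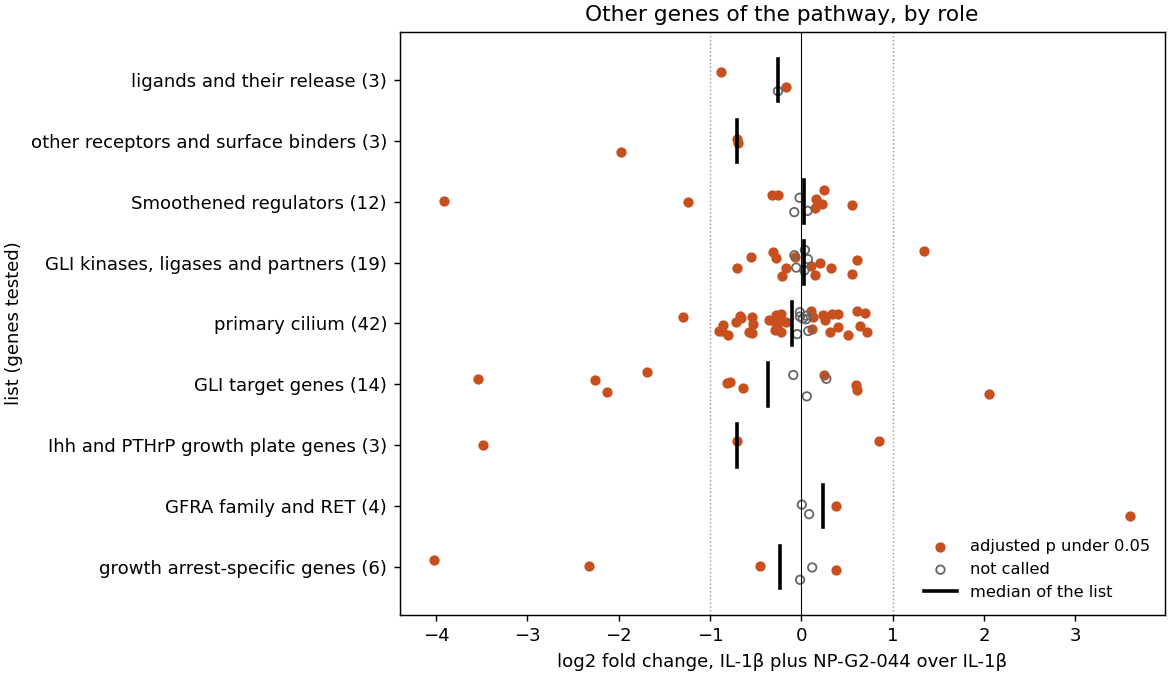
Log2 fold change of every tested gene of 9 lists, with the number tested in brackets, filled where the adjusted p was under 0.05 and open where not called, and a black bar at the list's median. Dotted lines mark 1 log2 unit. The Smo regulators, GLI kinases and ciliary genes centre between -0.11 and 0.03. The GLI targets spread from -3.54 to 2.06 around a median of -0.36, the lowest being Sfrp1, with 37 reads in IL and 3 in ILN.

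The growth plate loop of Ihh and PTHrP was barely represented. Pthlh, which encodes PTHrP, had 5 reads in IL and 0 in ILN, Pth1r, its receptor, had 12 and 5, and Col10a1, the collagen of hypertrophic cartilage, had 2 and 3. All 3 genes of this list with enough reads were called, where 39.8% of all tested genes were called lower and 40.2% higher. Mef2c, a factor of chondrocyte hypertrophy, fell from 1.31 ± 0.153 to 0.11 ± 0.0458 TPM (log2 fold change -3.48, SE 0.240, adjusted p = 6.02e-19 by edgeR's quasi-likelihood test), though with 6, 5 and 11 reads in ILN it passed the filter on low counts only through IL. Runx2, also a hypertrophy factor, fell from 20.8 to 12.4 TPM (-0.71, adjusted p = 1.12e-20), and Sox9, the factor that specifies chondrocytes, rose from 6.44 to 11.4 TPM (0.85, adjusted p = 5.07e-16). Over the 106 tested genes of all 9 lists, 49 fell, 34 rose and 23 were not called, and the median log2 fold change was -0.06.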

How the data were processed

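ATDC5 RNA libraries (Illumina TruSeq RNA kit) were grouped by their titles into IL and ILN, 3 each. The authors deposited 1 table with estimated counts of reads, FPKM and TPM for each gene and library. Extraction, sequencing and quantification were done by a sequencing company per the study's methods. The submitters' processing notes name cutadapt, HISAT2 2.0, StringTie and mm10, with no roles. The sources used here give neither the annotation nor the strand setting of the counting. The authors' FPKM values were not used, and neither were their group means or their own comparison columns.

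Counts, of which 10.2% to 11.1% per library were not whole (those of the 9 genes all were), were rounded and tested with edgeR 4.0.16 in R 4.3.3 (filterByExpr at a minimum of 10, TMM, quasi-likelihood test, Benjamini-Hochberg over 11983 genes), and called at an adjusted p under 0.05, with a log2 fold change over 1 in size as a further cutoff. Deposited TPM gave levels, and SDs are over 3 libraries. The step was tried on simulated data in which few genes changed, evenly in both directions. That setting differs from these data, where most genes moved, so it does not check the calls under such a shift. Pooled ratios of reads were scaled to equal depth. Total reads of 16615824 to 17735860 set the precision of low genes. Upstream windows came from RefSeq tables (GRCm38.p6) and gene spans from GENCODE on GRCm38.

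The 9 genes and all lists were chosen with earlier results of these data known. Beyond the 9 genes, those named in full had 60 reads or more and were past both cutoffs (up to 4 per list), together with Ihh, Dhh, Pthlh, Ret and Gfra1. A further result under this rule is not reported here. The other genes named were chosen after their values were seen. Alternatives were DESeq2 1.42.0, limma 3.58.1 on log2(TPM + 1) or log2(TPM + 0.1), limma-voom, other scalings and filters, a replicate block, and leaving out each library.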

Additional observations from a re-analysis of the deposited data

How the results depend on the processing

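Of 119 values of the 8 tested genes over 15 alternatives, none changed sign, 107 moved by less than the spread between libraries and 12 by more. Gas1 stayed between -6.48 and -6.26 and Ptch1 between -2.92 and -2.79 on the log2 scale. Gli1 depended on the pseudocount, with -0.46 for limma on log2(TPM + 1) and -1.78 on log2(TPM + 0.1) against -2.69, was -3.08 without the third ILN library, and was not tested under a filter of 10 CPM in 3 libraries. That filter left 9447 genes, with 1 ligand gene called in place of 2, 7 GLI target genes in place of 11 and 1 GFRA and RET gene in place of 2, since fewer genes of low level were tested. It also gave 680 lower and 484 higher genes past both cutoffs, and limma on log2(TPM + 1) gave 805 and 516, against 1211 and 776 reported. The Smo regulators called higher numbered 3 rather than 5 with DESeq2, with limma on either TPM scale and without the first ILN library. Without one library at a time, between 9325 and 9448 genes were called, against 9584. Other scalings moved the median of all genes by less than 0.01. Libraries with the same number did not visibly deviate together (r of -0.0934, -0.0236 and 0.0259, where other pairs ran from -0.107 to 0.129). Mean squared differences within a group were 1.54 to 2.39 times those of read sampling, so a shared culture could go unseen. Whether the numbers pair the libraries therefore cannot be told from this. A fit with a replicate block called 9498 genes. At this depth Gli1, Gli2 and the ligand genes, with a few reads per library, allow no finer statement.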

Other observations

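Gas1 is related to the GFRα coreceptors of RET, and that family was followed as well. Gfra1, the coreceptor of GDNF, had 1.01 ± 0.306 TPM in IL and 0.997 ± 0.247 in ILN (log2 fold change 0.01, SE 0.191, adjusted p = 0.981 by edgeR's quasi-likelihood test). Ret had 26 and 29 reads (adjusted p = 0.846). Among the ligands, Gdnf rose from 21.98 ± 1.60 to 28.3 ± 1.24 TPM (0.38, adjusted p = 9.59e-11), and Artn, artemin, rose from 0.533 ± 0.290 to 6.66 ± 0.24 TPM (3.60, SE 0.188, adjusted p = 6.44e-24), though with 6, 18 and 12 reads in IL it passed the filter on low counts only through ILN. Artn and Gdnf were the 2 genes called of the 4 tested on this list, against 39.8% lower and 40.2% higher among all tested genes.

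Of 6 tested genes that share the growth arrest-specific name with Gas1, 3 fell, 1 rose and 2 were not called. Among all tested genes 39.8% were called lower and 40.2% higher. Pmp22, known as Gas3 and a membrane protein of myelin, fell from 93.3 ± 3.36 to 18.3 ± 1.06 TPM (log2 fold change -2.32, SE 0.0508, adjusted p = 5.87e-41 by edgeR's quasi-likelihood test). Gas7, a protein that binds actin, fell from 0.95 ± 0.14 to 0.0567 ± 0.0252 TPM (-4.02, SE 0.285, adjusted p = 1.78e-18), but had 6, 5 and 2 reads in ILN and passed the filter on low counts only through IL. Gas2l3 fell by 0.46 on the log2 scale and Gas8 rose by 0.38, while Gas2 (0.12) and Gas2l1 (-0.01) were not called.

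The 5 genes nearest to Gas1 by Euclidean distance in log2(TPM + 1) over the 6 libraries were Igfbp3, Thbs1, Lxn, Ptn and Cxcl12, which were picked by that distance and carry no test. Igfbp3, a binding protein of insulin-like growth factors, was much the closest at a distance of 0.938, and went from 965.3 ± 50.6 to 9.24 ± 0.805 TPM. The next, the matricellular protein gene Thbs1, lay at 3.25, with 190.9 ± 11.9 and 7.47 ± 0.241 TPM. Lxn, Ptn and Cxcl12 followed at 3.30, 3.50 and 3.71, with falls in log2 fold change of -3.71, -3.44 and -3.35.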
